A study of Mus musculus with 6 samples.

Results

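Fc gamma receptors and beta2 integrins were read in RNA from mouse aorta, as the 9 genes Fcgr1, Fcgr2b, Fcgr3, Fcgr4, Fcer1g, Itgam, Itgax, Itgal and Itgb2. Their symbols marked 10 of the 55335 rows of the gene count table, since Itgam stood on 2 rows. The genes form a group of myeloid phagocytic receptors, and they were picked in part because Itgam and Fcgr4 were higher in aged aorta, so the values of aged against young aorta are given here as a description without a test. Whole aorta came from wild-type C57BL/6 mice of 6 weeks (young, 3 libraries) and 6 months (aged, 3 libraries). The study describes the mice as male and names no treatment, and the surrounding fat was dissected before freezing. Values for young and aged replicates are listed throughout in the order 1, 2 and 3, and gene positions are those of GENCODE M21 on GRCm38.

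Fc gamma receptors bind the constant part of IgG and let phagocytes take up antibody-coated particles. Fcgr1, Fcgr3 and Fcgr4 encode the ligand-binding chains of activating receptors, which signal through the chain encoded by Fcer1g, while Fcgr2b encodes the inhibitory receptor. Beta2 integrins pair the beta chain encoded by Itgb2 (CD18) with an alpha chain, which is CD11a from Itgal in LFA-1, CD11b from Itgam in Mac-1 or CD11c from Itgax. In the vessel wall such genes are known from resident macrophages, monocytes and other leukocytes, which bind ICAMs, complement C3 fragments and immune complexes through them.

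Total counts lay between 31049632 and 45832185 per library, and 9 of the 10 rows passed the filter on low counts, with Itgax left out. Mitochondrial genes took 21.2%, 16.7% and 14.9% of the counts in young and 23.1%, 26.7% and 30.4% in aged aorta, higher in every aged library, and the part of this in the results was not tested. Smooth muscle markers summed to between 27240 and 39240 CPM (counts scaled by TMM-adjusted library size), as the vessel label implies. The library of young replicate 1 went against the description as male, with 305.6 CPM of the female-specific RNA Xist against 0.636 or less elsewhere and with 53 counts of the Y-linked gene Ddx3y against 1488 to 2117. Log2 fold changes without it are given beside those of the tested rows, except for Fcgr4, whose other young libraries were at 0. Adipocyte markers remained detectable in every library, with 2735 CPM in aged replicate 2 and between 916 and 1722 in the others. Endothelial markers summed to 1563 CPM in aged replicate 3 and to between 317 and 461 in the others. In bulk tissue, fewer cells of a type and less RNA per cell cannot be told apart.

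The promoter windows of RefSeq on GRCm38.p6, from 250 bases before to 50 bases after the start site, held an entry for 7 of the 9 genes. The motif GAGGAAG, which contains the GGAA core of ETS factors such as the myeloid factor PU.1, was searched on both strands (reverse CTTCCTC). It was present in windows of 4 of these 7 genes, namely Fcgr1, Fcgr3, Fcgr4 and Itgam, and in 13.6% of all 32851 windows of this length. The windows of Fcgr2b, Fcer1g and Itgax did not hold these letters. The 4 windows with a match are shown because they carry a feature that the activating receptor chains have in common, with the match in capitals and the sequence in the direction of the gene. They are chr3:96293920-96294219 (minus strand) for Fcgr1, chr1:171059354-171059653 (minus strand) for the first of the Fcgr3 windows, which lies inside the longer Fcgr3 model of GENCODE M21, chr1:171018676-171018975 (plus strand) for Fcgr4 and chr7:128062390-128062689 (plus strand) for Itgam.
Fcgr1: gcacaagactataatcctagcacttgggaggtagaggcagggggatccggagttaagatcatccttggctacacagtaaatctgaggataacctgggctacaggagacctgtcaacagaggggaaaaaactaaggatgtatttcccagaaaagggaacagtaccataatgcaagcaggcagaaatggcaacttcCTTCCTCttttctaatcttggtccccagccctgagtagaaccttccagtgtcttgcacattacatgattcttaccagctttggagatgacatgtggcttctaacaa
Fcgr3: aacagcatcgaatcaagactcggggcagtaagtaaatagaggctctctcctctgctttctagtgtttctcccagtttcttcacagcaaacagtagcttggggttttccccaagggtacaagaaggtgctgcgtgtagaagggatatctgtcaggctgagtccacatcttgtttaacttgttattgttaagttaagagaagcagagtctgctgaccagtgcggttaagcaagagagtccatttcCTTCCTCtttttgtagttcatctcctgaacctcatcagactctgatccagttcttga
Fcgr4: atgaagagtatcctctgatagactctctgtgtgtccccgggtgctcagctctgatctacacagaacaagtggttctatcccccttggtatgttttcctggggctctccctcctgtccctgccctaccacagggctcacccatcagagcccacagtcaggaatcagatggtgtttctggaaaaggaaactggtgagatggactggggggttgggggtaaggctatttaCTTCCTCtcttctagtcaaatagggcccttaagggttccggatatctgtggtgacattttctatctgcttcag
Itgam: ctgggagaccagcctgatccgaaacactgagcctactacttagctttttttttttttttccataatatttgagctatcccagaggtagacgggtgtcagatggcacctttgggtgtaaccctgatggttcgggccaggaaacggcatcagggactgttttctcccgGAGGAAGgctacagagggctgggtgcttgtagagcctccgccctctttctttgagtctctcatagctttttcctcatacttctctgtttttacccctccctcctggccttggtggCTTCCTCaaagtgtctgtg
In each of the activating receptor genes the match lay on the opposite strand shortly before the start site, by 56 bases in Fcgr1, 7 in Fcgr3 and 23 in Fcgr4. Itgam had a match on its own strand 84 bases before the start site and another on the opposite strand 31 bases after it. A match of letters does not show that a factor binds there.

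Among the activating receptor chains, Fcgr3 (CD16) was the most abundant and Fcgr4 (CD16-2) had almost no reads in young aorta. Fcgr4, on chromosome 1 from 171018920 to 171029761, drew 2, 0 and 0 reads in the young mice and 25, 13 and 18 reads in the aged mice. The groups did not overlap, with at most 0.0413 CPM in a young library and at least 0.345 CPM in an aged library. A count of 0 allows up to 3 counts, which is 0.0862 CPM in young replicate 2 and 0.0874 in young replicate 3. Over the summed counts of 2 and 56, the ratio of aged to young was 33.2 with an exact 95% interval from 8.77 to 281, which covers counting error only. Without young replicate 1, the young libraries held no Fcgr4 read.

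Fcgr3, on chromosome 1 from 171051174 to 171064935, was at 4.91, 2.70 and 4.63 CPM in young and at 18.1, 5.83 and 9.49 CPM in aged aorta. Every aged library lay above every young library, although aged replicate 2 exceeded the highest young library by less than the young SD of 1.20 CPM. The means were 4.08 ± 1.20 (SD, n = 3) and 11.1 ± 6.27 CPM (SD, n = 3), and the log2 fold change was 1.44 (standard error 0.45), or 1.60 without young replicate 1. Fcgr1 (CD64), the high-affinity receptor on chromosome 3 from 96282909 to 96293969, was at 0.681, 0.115 and 0.262 CPM in young and at 1.504, 0.477 and 0.460 CPM in aged aorta. These groups overlapped, and its log2 fold change of 1.18 (standard error 0.82) rested on between 4 and 50 counts per library. Without aged replicate 1 it was 0.39, and without young replicate 1 it was 2.09.

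The inhibitory receptor and the shared signalling chain were also higher on average in aged aorta. Fcgr2b (CD32), on chromosome 1 from 170958617 to 170976547, was at 4.60, 2.76 and 3.001 CPM in young and at 8.15, 5.09 and 8.63 CPM in aged aorta, with no overlap. As for Fcgr3, aged replicate 2 exceeded the highest young library by less than the young SD, here 1.002 CPM. The log2 fold change of Fcgr2b was 1.07 (standard error 0.32), or 1.35 without young replicate 1. Fcer1g, on chromosome 1 from 171229572 to 171234365, was at 3.28, 1.70 and 1.92 CPM in young and at 9.51, 2.52 and 7.22 CPM in aged aorta. Here aged replicate 2 lay within the young range, below young replicate 1 alone, while the other aged libraries were at 7.22 CPM or more. The log2 fold change came to 1.47 (standard error 0.52), or 1.83 without young replicate 1. Fcgr2b and Fcgr3 share 166 distinct stretches of 50 bases in GENCODE M21, the length of the reads, which is 2.92% of those of Fcgr2b and 9.58% of those of Fcgr3. No such stretch of Fcgr1, Fcgr4 or Fcer1g occurred in another gene.

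**Figure D1:**
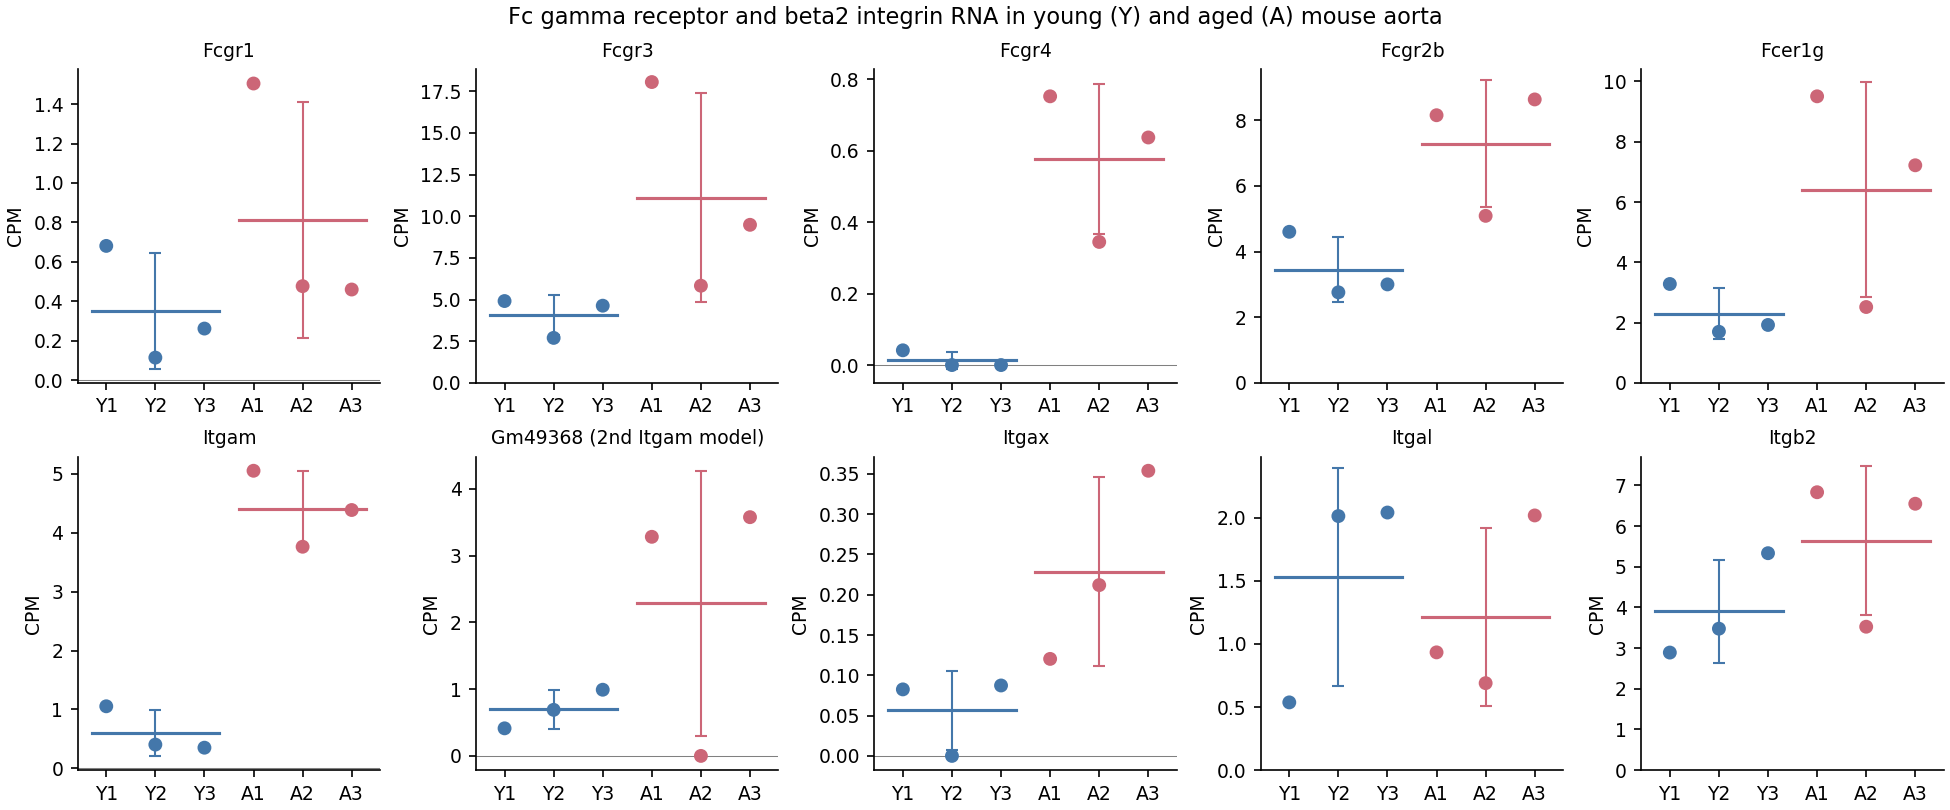
CPM of each gene (linear vertical axes that include 0, scaled per gene) in young replicates (Y1 to Y3, blue) and aged replicates (A1 to A3, red) of mouse aorta, with points for libraries, lines for group means and bars for ±1 SD (n = 3). Fcgr4 is at or near 0 in the young libraries and between 0.345 and 0.752 CPM in the aged libraries, while Itgal overlaps between the groups.

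Among the integrin alpha chains, Itgam was higher in every aged library, while Itgal overlapped between the groups and Itgax had few reads. Itgam lies on chromosome 7 from 128062640 to 128118491, and its row (ENSMUSG00000030786) held 51, 14 and 12 reads in young and 168, 142 and 124 reads in aged aorta. The groups were far apart, with a highest young value of 1.05 CPM and a lowest aged value of 3.76 CPM. The log2 fold change was 2.85 (standard error 0.50), or 3.54 without young replicate 1.

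The second row with the symbol Itgam (ENSMUSG00000108596) is named Gm49368 in GENCODE M21, a protein-coding model on the same strand from 128062683 to 128128160. The Itgam model holds 5024 exon bases, of which 3450 (68.7%) are also exon bases of Gm49368, and these are 71.8% of the 4803 bases of the latter. Gm49368 drew 20, 24 and 34 reads in young and 109, 0 and 101 reads in aged aorta. Its log2 fold change was 1.71 (standard error 1.30), or 1.44 without young replicate 1. Aged replicate 2 had no read on Gm49368, which allows up to 3 counts or 0.0795 CPM, beside 142 reads on the Itgam row. The share of the locus assigned to Gm49368 was 28.2%, 63.2% and 73.9% in young and 39.4%, 0% and 44.9% in aged aorta. How reads on shared exons were assigned is not given in the sources used here, so neither row alone is a secure measure of CD11b RNA. The sum of both rows, and the ranks and ratios taken from it below, depend on that assignment as well.

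With both rows added, a step chosen after the data were seen, the locus had 71, 38 and 46 counts in young and 277, 142 and 225 counts in aged aorta. That is 1.46, 1.09 and 1.34 CPM in young and 8.34, 3.76 and 7.96 CPM in aged replicates 1, 2 and 3. The groups still did not overlap, and the young SD shrank to 0.190 CPM from 0.392 CPM for the Itgam row. The log2 fold change became 2.36 (standard error 0.38), a fold of 5.13 in place of 7.19 for the Itgam row alone.

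**Figure D2:**
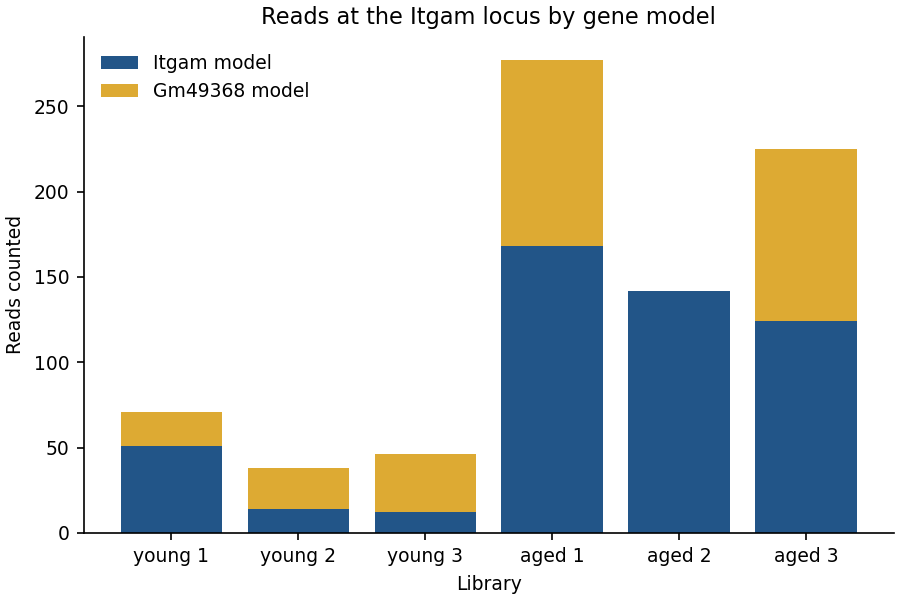
Reads counted at the Itgam locus in each library (vertical axis, counts from 0), stacked by gene model, with Itgam in blue and Gm49368 in yellow. The sum lies between 38 and 71 in young and between 142 and 277 in aged libraries, while the share on Gm49368 varies from 0% in aged replicate 2 to 73.9% in young replicate 3.

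Itgal, the alpha chain of LFA-1 on chromosome 7 from 127296260 to 127335138, was at 0.537, 2.01 and 2.04 CPM in young and at 0.933, 0.689 and 2.02 CPM in aged aorta. Its lowest value was in a young library and the groups overlapped throughout (log2 fold change -0.33, standard error 0.66, or -0.73 without young replicate 1). Itgax, on chromosome 7 from 128129547 to 128150657, drew 4, 0 and 3 reads in young and 4, 8 and 10 reads in aged aorta, too few to be tested. Itgax shares 8.02% of its 50-base stretches with its neighbour Itgad, an integrin alpha chain with at most 0.0583 CPM in a library. The beta chain gene Itgb2, on chromosome 10 from 77530252 to 77565708, was at 2.89, 3.48 and 5.33 CPM in young and at 6.83, 3.53 and 6.55 CPM in aged aorta. The groups overlapped through aged replicate 2, and the log2 fold change of 0.53 (standard error 0.37) was below those of the Fc receptor genes. It was 0.36 without young replicate 1.

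In the fit over all genes, edgeR's quasi-likelihood test called 0 of the 9 tested rows and 0 of 16612 genes (0%) at an adjusted p below 0.05. At an unadjusted p below 0.05 there were 5 rows, namely Itgam, Fcgr4, Fcgr2b, Fcgr3 and Fcer1g, against a background of 10.4% of all genes, or 5.56% for genes higher and 4.82% for genes lower in aged aorta. DESeq2 called 1 row, Itgam, and gave no adjusted p for Fcgr4 and Fcgr1, so it could not call these. Among the 14955 genes with an adjusted p it called 2.26% in either direction and 1.48% as higher. Of the 9 tested rows, 8 were higher on average in aged aorta (52.1% of all genes), 7 had a log2 fold change above 1 (7.19%), and in 4 every aged library lay above every young library (7.74%). Fcgr4, with 2, 0 and 0 reads in young aorta, passed the filter on low counts only through the aged libraries. It could therefore be tested only as higher, and it is among the rows in each of these counts by edgeR. The median log2 fold change of the 9 rows, Fcgr4 included, was 1.44, against 0.02 over all genes tested. Since the genes were picked on this contrast, nothing is read from these counts or from the median.

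Macrophage markers were also higher on average in aged aorta. All 9 genes of the list had a positive log2 fold change, with a median of 1.39, and among Csf1r, Cd68, Adgre1, C1qa, C1qb, C1qc, Lyz2 and Aif1 it lay between 1.09 for Csf1r and 1.70 for C1qb. By edgeR 0 of them passed and 9 had an unadjusted p below 0.05, while DESeq2 called Csf1r, C1qa and C1qb. Their summed level was 141, 103 and 103 CPM in young and 467, 132 and 301 CPM in aged replicates 1, 2 and 3. Aged replicate 2 thus lay within the young range of the summed markers, as it did for Fcer1g and Itgb2. For the summed markers and Fcer1g it lay below young replicate 1 alone, the library that went against the description as male. For Itgb2 it lay below young replicate 3 alone. Neutrophil markers summed to between 0.371 and 2.27 CPM in young and between 2.97 and 5.24 CPM in aged aorta, with 3 of 9 genes tested. Csf3r, S100a9 and Ngp were higher in every aged library. Csf3r was at 0.248, 0.747 and 0.291 CPM in young and 1.02, 1.11 and 1.38 CPM in aged aorta. Ngp had 0 counts in each young library and 23, 10 and 20 counts in aged aorta. S100a8, Mpo, Camp, Elane and Retnlg overlapped between the groups, and Ly6g was at 0 counts in all libraries. The 4 monocyte markers summed to between 1.34 and 4.74 CPM in young and between 2.86 and 12.8 CPM in aged aorta. Natural killer cell markers stayed at or below 0.283 CPM in sum, with Ncr1, Klrb1c and Nkg7 at 0 counts in all libraries. T cell markers reached 6.18 CPM in young replicate 2 and between 0.816 and 1.75 CPM elsewhere, and B cell markers lay between 0.782 and 5.26 CPM. Pan-leukocyte markers summed to 14.1, 18.2 and 11.04 CPM in young and 28.6, 13.1 and 26.7 CPM in aged aorta. Mast cell markers summed to 7.78, 5.43 and 4.63 CPM in young and 6.98, 14.5 and 13.48 CPM in aged aorta, and dendritic cell markers lay between 15.35 and 24.8 CPM. Most of the dendritic sum was Zbtb46, at 14.29 to 21.5 CPM, and Clec9a lay between 0.291 CPM in young replicate 3 and 2.90 CPM in aged replicate 3. Xcr1, Flt3 and Cd209a were at 0.402 CPM or less in each library. The part of these cells in the receptor values was not tested.

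**Figure D3:**
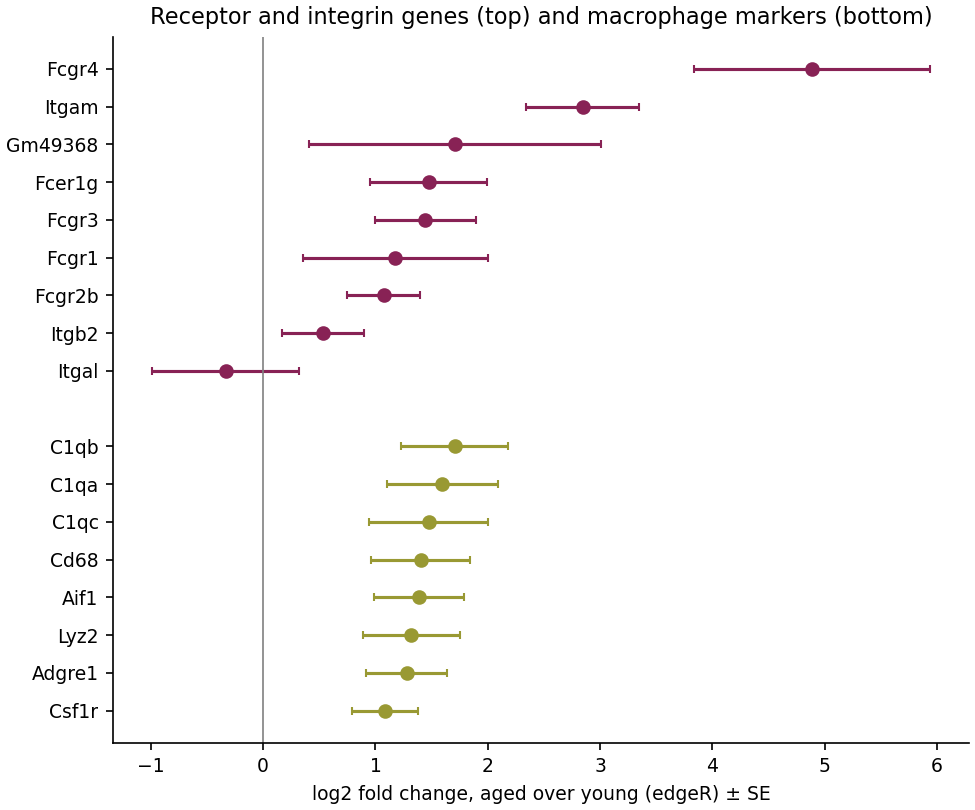
Log2 fold change of aged over young aorta from edgeR (horizontal axis) with bars of ±1 standard error, for the tested receptor and integrin rows (purple, top) and 8 of the macrophage markers (olive, bottom). Fcgr4 at 4.89 and Itgam at 2.85 lie to the right of the macrophage markers shown, which lie between 1.09 and 1.70, and Itgal at -0.33 lies to the left of 0.

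On the FPKM scale, which divides by gene length and so allows genes to be compared, the order of mean levels in young aorta with the Itgam row alone was Fcer1g, Fcgr3, Itgb2, Fcgr2b, Itgal, Fcgr1, Itgam, Itgax and Fcgr4. Fcer1g was at 2.53 ± 0.8985 FPKM and Fcgr3 at 2.28 ± 0.662 FPKM in young aorta (SD, n = 3 each), and these 2 genes did not differ beyond their spread. Itgb2 followed at 1.25 ± 0.441 and Fcgr2b at 0.570 ± 0.1535 FPKM, and in each young library Fcgr3 exceeded Itgb2 and Itgb2 exceeded Fcgr2b. Itgal at 0.228 ± 0.132, Fcgr1 at 0.126 ± 0.104 and Itgam at 0.114 ± 0.0720 FPKM were not separated by their spread. With both Itgam rows, Itgam was at 0.276, 0.215 and 0.2745 FPKM in young aorta, which placed its mean of 0.255 ± 0.0346 (SD, n = 3) before Itgal and Fcgr1, although it exceeded Itgal in 1 of the 3 libraries. In aged aorta, again with the Itgam row alone, the first 4 genes were in the same order, with Fcer1g at 6.12 ± 3.46 and Fcgr3 at 5.36 ± 3.11 FPKM. Itgam came next at 0.735 ± 0.113 FPKM, followed by Fcgr4 at 0.369 ± 0.140, Fcgr1 at 0.262 ± 0.195 and Itgal at 0.151 ± 0.0816 FPKM. In each of the 3 aged libraries Itgam exceeded Fcgr4 and Fcgr4 exceeded Fcgr1. With both rows, Itgam was at 1.44, 0.639 and 1.30 FPKM in aged aorta, and its mean of 1.13 ± 0.429 (SD, n = 3) came before that of Fcgr2b, which it exceeded in 2 of the 3 libraries and from which it was not separated by the spread.

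Ratios of FPKM within a library give the relative RNA levels of the chains in the whole tissue. Itgam per Itgb2 was 0.219, 0.0671 and 0.0398 in young and 0.450, 0.648 and 0.408 in aged replicates 1, 2 and 3. With both Itgam rows it was 0.307, 0.194 and 0.157 in young and 0.754, 0.648 and 0.7535 in aged aorta, which did not overlap and spread little among the aged mice. Itgal per Itgb2 went the other way on average but overlapped, at 0.177 ± 0.0933 in young and 0.0983 ± 0.0396 in aged aorta (SD, n = 3 each). The 3 alpha chain genes together per Itgb2, with both Itgam rows, were at 0.409, 0.465 and 0.344 in young and 0.827, 0.777 and 0.929 in aged aorta, without overlap. Itgam was picked in part because it was higher in aged aorta, and the share of all genes that separate per Itgb2 was not computed. Nothing is therefore read from these separations. Itgal exceeded Itgam in young replicates 2 and 3, where the FPKM of Itgam per Itgal was 0.248 and 0.225, while it was 2.61 in young replicate 1 and between 2.90 and 7.18 in aged aorta. With both rows, Itgam per Itgal was 0.717 and 0.890 in young replicates 2 and 3, so Itgal remained the higher of the pair there. Activating receptor chains (Fcgr1, Fcgr3 and Fcgr4 together) per Fcgr2b were 3.94, 3.38 and 5.48 in young and 8.25, 4.38 and 4.12 in aged aorta. That balance overlapped between the groups, and its aged mean of 5.58 ± 2.31 (SD, n = 3) was raised by aged replicate 1. The same chains per Fcer1g were at 0.974 ± 0.244 in young and 1.04 ± 0.295 in aged aorta (SD, n = 3 each), a difference smaller than the spread.

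**Figure D4:**
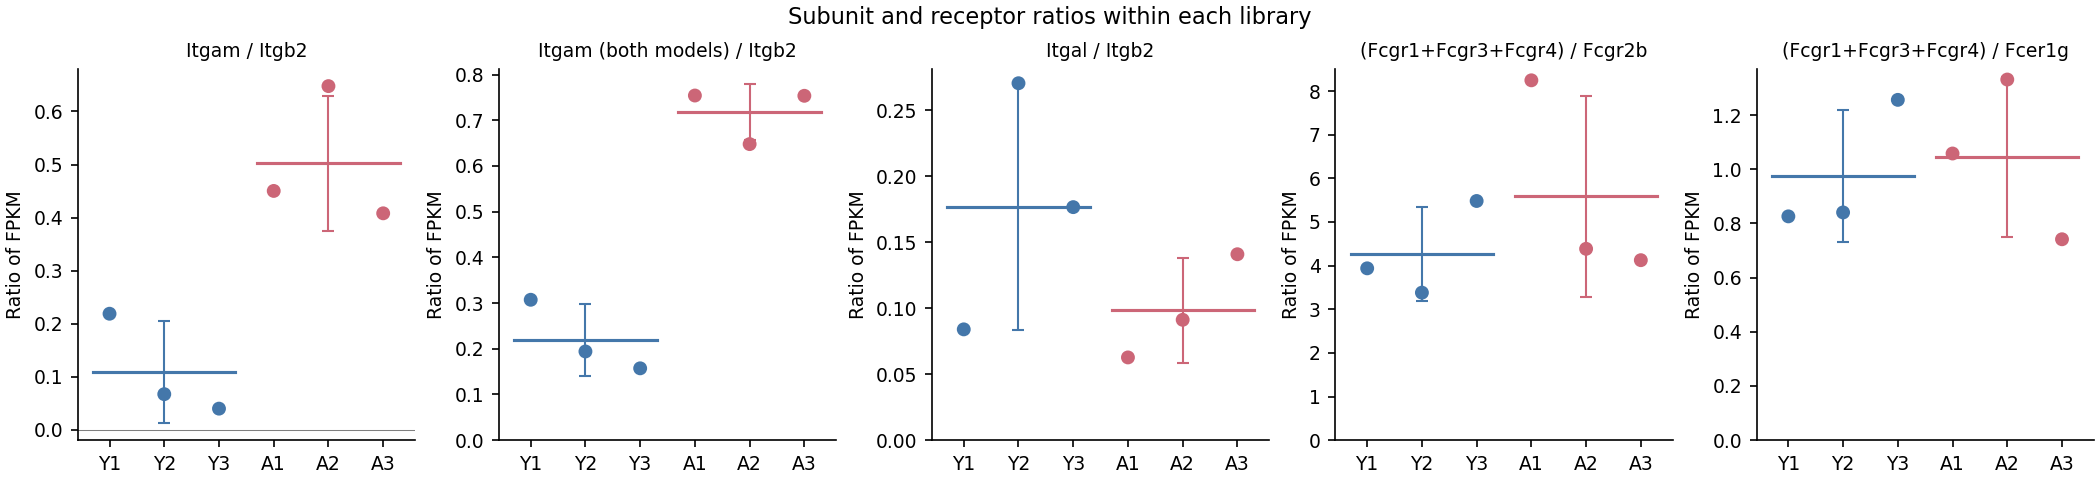
Ratios of FPKM within each library (linear vertical axes that include 0) for Itgam or Itgal over Itgb2 and for activating receptor chains over Fcgr2b or Fcer1g, with points for libraries, lines for means and bars for ±1 SD (n = 3). Itgam over Itgb2 does not overlap between young (Y, blue) and aged (A, red) libraries with or without the second gene model, while the other 3 ratios plotted overlap. Itgam was picked in part because it was higher in aged aorta.

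Csf1r, the receptor for macrophage colony-stimulating factor and a marker of macrophages, served as a denominator to compare the genes per RNA of a macrophage gene, a choice made after the values were seen. Fcgr3 per Csf1r was 1.33, 0.610 and 1.23 in young and 1.62, 1.17 and 1.04 in aged replicates 1, 2 and 3, and Fcgr2b was at 0.262 ± 0.0957 in young and 0.267 ± 0.0432 in aged aorta (SD, n = 3 each). Fcer1g (1.17 ± 0.526 and 1.42 ± 0.378) and Fcgr1 (0.05985 ± 0.0538 and 0.0620 ± 0.0277) overlapped as well. Fcgr4 per Csf1r was 0.00777 in young replicate 1 and was listed at 0 in the other young libraries. In aged aorta it was 0.0901, 0.0884 and 0.0941, from 25, 13 and 18 reads of Fcgr4. So few reads do not resolve how close these values are, and nothing is read from their closeness. The level of Csf1r itself differed between these mice, at 36.95, 16.6 and 30.3 CPM. Itgam with both rows was 0.137, 0.0864 and 0.127 in young and 0.264, 0.2605 and 0.308 in aged aorta, again without overlap. Itgb2 per Csf1r was 0.445, 0.445 and 0.809 in young and 0.350, 0.402 and 0.409 in aged aorta, so every aged value was below every young value. Csf1r was itself higher in every aged library, with 12.3, 14.7 and 12.5 CPM in young aorta and a log2 fold change of 1.09. Genes that rose less, such as Itgb2 at 0.53, therefore have lower ratios there. The share of all genes that separate per Csf1r was not computed, so nothing is read from these separations. Itgal per Csf1r was 0.0374, 0.120 and 0.143 in young and between 0.0219 and 0.0577 in aged aorta, which overlapped through young replicate 1.

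**Figure D5:**
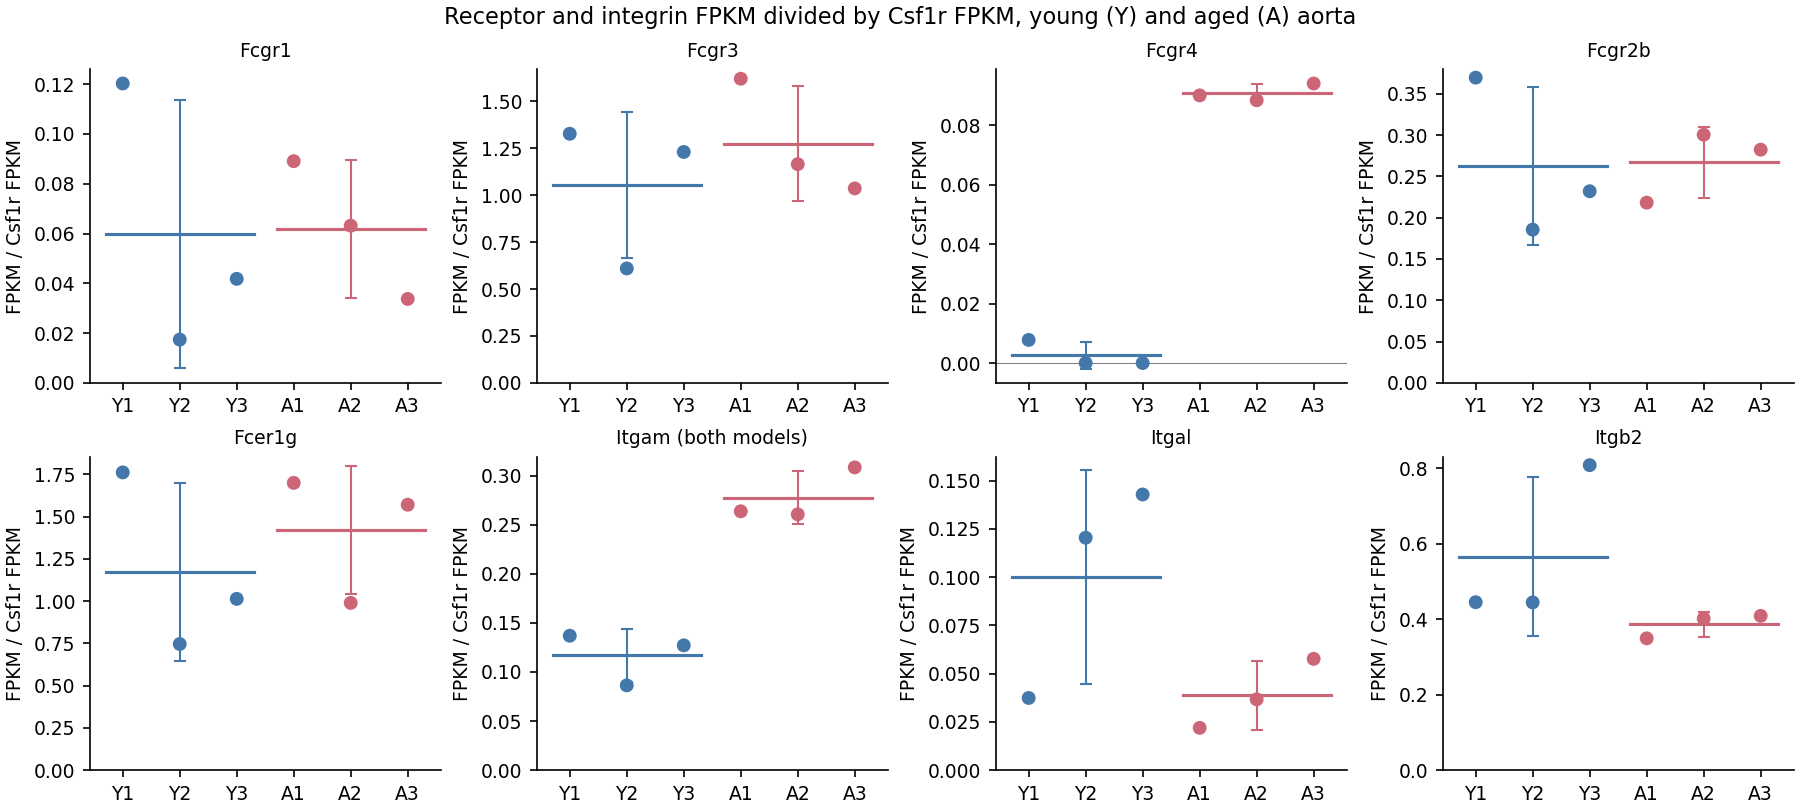
FPKM of each gene divided by the FPKM of Csf1r in the same library (linear vertical axes that include 0), in young (Y, blue) and aged (A, red) aorta, with points for libraries, lines for means and bars for ±1 SD (n = 3). Per Csf1r, Fcgr4 and Itgam (both models) are higher in every aged library, Itgb2 is lower in every aged library, and the other genes overlap. Csf1r itself is higher in every aged library.

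The genes with the most similar profiles differed between the shared chains. Across the 6 libraries and among 14093 other genes averaging 1 CPM or more, the highest Pearson correlations of log2 CPM with Fcer1g were those of Gng2 (0.997), C1qa (0.995), Serinc3 (0.994), Capg (0.994) and Apod (0.994). Those with Itgb2 were Ntn4 (0.996), Tgfbi (0.994), Tlr3 (0.994), Cdk14 (0.988) and Lrp4 (0.986). With 6 libraries and so many genes such values are a description, and the libraries share differences in depth and tissue composition. All correlations here span both age groups without removal of the group means. Genes that are higher in aged aorta therefore correlate with each other through that contrast as well. Among the receptors themselves, log2 CPM of Fcer1g had a correlation of 0.939 with Fcgr3 and of 0.95 with Fcgr2b over the 6 libraries, while Itgal had negative values with each of the 5 Fc receptor genes, from -0.62 for Fcgr1 to -0.15 for Fcer1g.

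Genes that act downstream of these receptors were mostly higher on average, with 0 of 20 called by edgeR or by DESeq2. Of the 20 genes of the list, 16 had a positive log2 fold change, with a median of 0.55, and at an unadjusted p below 0.05 there were 4 higher and 1 lower gene. Tyrobp, which encodes the adaptor DAP12, was at 3.47, 2.90 and 1.72 CPM in young and 10.1, 3.45 and 7.68 CPM in aged aorta (log2 fold change 1.39, adjusted p = 0.403, edgeR). Aged replicate 2 was again within the young range, below young replicate 1 alone. Syk, the kinase that binds the phosphorylated signalling chains and is named here after its values were seen, was at 4.09 ± 1.76 CPM in young and 10.6 ± 5.29 CPM in aged aorta (SD, n = 3 each). Tln1, which encodes talin and links integrins to actin in many cell types, was at 632, 622 and 787 CPM in young and at 469, 482 and 476 CPM in aged aorta. Its groups did not overlap in the lower direction, with a log2 fold change of -0.52 (adjusted p = 0.390, edgeR). Skap2 (0.10), Plcg2 (1.00) and Apbb1ip (0.78) were the next most abundant, with log2 fold changes in parentheses and adjusted p values of 0.501 or more by edgeR. The value of Plcg2 rested on aged replicate 3, with 28.6 CPM against 5.30 and 3.74 CPM in the other aged libraries and between 5.57 and 7.33 CPM in young aorta.

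Of 13 genes for ligands, 10 were tested, 6 were higher with a median log2 fold change of 0.80, and 0 were called by edgeR (4 higher and 1 lower at an unadjusted p below 0.05) while DESeq2 called Thy1 and C3. C3, whose fragment iC3b is bound by Mac-1, was at 144, 211 and 114 CPM in young and 510, 210.5 and 616 CPM in aged aorta. Its log2 fold change was 1.51 (adjusted p = 0.377, edgeR), with aged replicate 2 within the young range. Thy1 was at 12.1, 11.01 and 13.1 CPM in young and at 89.1, 17.2 and 49.4 CPM in aged aorta, a log2 fold change of 2.10 (adjusted p = 0.377, edgeR). Jam3 and F11r were at -0.26 and 0.27. Icam1, which encodes a ligand of LFA-1 and Mac-1 and is named after its values were seen, was at 10.5 ± 1.30 CPM in young and 26.4 ± 14.5 CPM in aged aorta (SD, n = 3 each), with aged replicate 2 within the young range. The fibrinogen genes Fga, Fgb and Fgg, also named after their values were seen and encoding ligands of Mac-1, had log2 fold changes of -2.28, -2.56 and -1.70 (adjusted p values of 0.443 or more, edgeR). Each was highest in young replicate 3, at 10.3, 6.91 and 3.73 CPM, and Fgb was the lower gene at an unadjusted p below 0.05. Summed fibroblast markers, which were highest in the same libraries as C3 and Thy1, were at 5329, 1468 and 3732 CPM in aged replicates 1, 2 and 3 and between 1575 and 2601 CPM in young aorta. Their part in the ligand values was not tested. Of the 4 IgG heavy chain genes listed, Ighg2c passed the filter and Ighg1, Ighg2b and Ighg3 did not. Ighg2c passed only through the aged libraries, so it could be tested only as higher. Ighg2c, named after its values were seen, was at 0, 0 and 0.291 CPM in young and 0.511, 0.583 and 0.956 CPM in aged aorta.

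Among genes of the phagocyte oxidase, which makes reactive oxygen after receptor engagement, Cyba, Cybb, Ncf1 and Ncf4 were not called by edgeR or DESeq2, and Ncf1 had an unadjusted p below 0.05 by edgeR. Ncf1 was at 1.86, 2.01 and 1.92 CPM in young and 4.78, 2.60 and 5.27 CPM in aged aorta, with no overlap (log2 fold change 1.12, adjusted p = 0.390, edgeR). The log2 fold changes of Cyba, Ncf4 and Cybb were 0.57, 1.62 and 0.15. Among 10 tested genes for other phagocytic receptors 9 were higher, with a median of 0.80 and 0 called by edgeR (3 higher at an unadjusted p below 0.05). The mannose receptor Mrc1 (1.38, adjusted p = 0.317, edgeR) was the gene of that list called by DESeq2, Cd14 was at 1.41, and the abundant Axl, Mertk, Cd36 and Stab1 were at 0.14, 0.02, 0.55 and 0.87. The value of Stab1 rested on aged replicate 3, with 151.8 CPM against 50.1 and 30.4 CPM in the other aged libraries and between 36.7 and 50.8 CPM in young aorta. Of the other Fc receptor genes 4 of 9 were tested and 0 called by edgeR or DESeq2 (1 higher, Fcrls, at an unadjusted p below 0.05). Fcgrt, which encodes the neonatal Fc receptor, was at 135, 86.0 and 106 CPM in young and 202, 113 and 164 CPM in aged aorta. The log2 fold change of Fcgrt was 0.55, and those of Fcrls, Trim21 and Pigr were 1.21, -0.19 and -0.81. Other integrins of leukocytes and platelets had 0 of 5 tested genes higher, a median of -0.46 and 0 calls by edgeR or DESeq2. Itgb3, the beta chain of the platelet and vascular integrins, was at 187, 124 and 163 CPM in young and 92.8, 114 and 106 CPM in aged aorta (log2 fold change -0.60, adjusted p = 0.400, edgeR), and 1 gene of that list, Itgb3, had an unadjusted p below 0.05. Itga4, Itga2b and Itgb7 were at -0.15, -0.56 and -0.46.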

How the data were processed

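RNA of 6 mouse aortas was sequenced by the study as single-ended reads of 50 bases from SMARTER mRNA-Seq libraries. The authors deposited reads counted per gene (counts, whole numbers without normalization) and FPKM, which the authors scaled for gene length and library. The build was mm10 per the submitters' processing notes; the aligner, counter and annotation are not given in the sources used here. Of 55335 Ensembl identifiers, 55154 were found in GENCODE M21, which gave coordinates (GRCm38), exon overlaps and shared 50-base stretches.

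In R 4.3.3, counts were filtered and TMM-normalized with edgeR 4.0.16 (filterByExpr, minimum count 10, minimum total 15) and fitted by quasi-likelihood without covariates, with Benjamini-Hochberg adjustment over all genes and a threshold of 0.05. P values measure the spread between the 3 libraries labelled as repeats of a group. The script was tested on simulated data. Alternatives were RLE, no filter (1 count), a filter of 10 counts per library throughout, a block for replicate number, leaving out each library, DESeq2 1.42.0 and limma 3.58.1 on log2 FPKM with pseudocounts of 1 and 0.1. Of the 16612 genes tested, DESeq2 gave an adjusted p for 14955 and could not call the rest. Members and lists were chosen with earlier results of these data known. Named were all members, for each list at most 4 genes of highest mean CPM and 2 of smallest p, and 5 genes of most similar profile for Itgb2 and Fcer1g. Correlations used log2 CPM with a prior count of 0.5. Adding both Itgam rows, leaving out young replicate 1 together with aged replicate 2, and division by Csf1r were chosen after the data were seen. Some genes of the lists are not reported here. Total counts between 31049632 and 45832185 set the precision, and a count of 0 allows up to 3.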

Additional observations from a re-analysis of the deposited data

How the results depend on the processing

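RLE size factors, both other filters and the sum of both Itgam rows in edgeR, and limma on FPKM, left the count of genes called at 0. DESeq2 called 338 genes (349 with the Itgam rows added), and with 1 library left out edgeR called between 0 and 110, the latter without aged replicate 2, and the cause was not tested. Member rows called numbered 0 under every edgeR and limma setting and 1 by DESeq2, with or without the second Itgam row. Fcgr4 and Fcgr1 had no adjusted p by DESeq2. Genes of the other lists called went from 0 to 7 by DESeq2 (7 also with the Itgam rows added) and lay between 0 and 7 with 1 library left out. The 7 called without aged replicate 2 were Dcn, Pdgfra, Csf1r, C1qa, Mrc1, Thy1 and Icam1. With the replicate block edgeR called 0 genes and 0 member rows, and it changed no call. Same-numbered libraries deviated from their group means with correlations of 0.0719, 0.108 and 0.0824, and no pairing was taken from them.

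Of the 9 member rows 8 were higher in aged aorta under each alternative that kept them all. With limma on FPKM the median over all genes was -0.12 and -0.19 (log2, pseudocounts 1 and 0.1), against which Itgal at -0.09 and -0.33 lay above and below. At these pseudocounts the log2 fold changes were 0.64 and 2.01 for Itgam, 0.44 and 2.11 for Fcgr4, 0.37 and 0.76 for Fcgr2b, 0.86 and 1.09 for Fcgr3, 0.90 and 1.10 for Fcer1g, and 0.37 and 0.76 for the median of the member rows (1.44 by edgeR), since a pseudocount shrinks low levels. With 1 library left out, log2 fold changes ranged from 2.59 to 3.54 for Itgam, 0.90 to 1.75 for Fcgr3, 0.94 to 1.35 for Fcgr2b, 1.07 to 1.86 for Fcer1g, 0.36 to 0.83 for Itgb2 and -0.91 to -0.05 for Itgal. Without young replicate 1 and aged replicate 2 edgeR called 0 genes (2766 at an unadjusted p below 0.05, against 1723 with all libraries), with Itgam at 3.64, Fcgr3 at 1.91, Fcgr2b at 1.55, Fcer1g at 2.21, Fcgr1 at 2.36, Itgb2 at 0.61 and Itgal at -0.45. List medians reversed for adipocyte markers (0.41, between -0.997 and 1.12 with 1 library left out, -1.19 without young replicate 1 and aged replicate 2), B cell markers (-0.14, between -1.22 and 1.02 with 1 library left out) and other Fc receptors (0.18, -0.20 with no filter, between -0.36 and 0.22 with 1 library left out). The median of the T cell markers, of which 2 were tested, also changed sign (-0.46, 1.21 without young replicate 2, 0.24 without aged replicate 2). So did those of endothelial markers (0.66, -0.13 without aged replicate 3), dendritic cell markers (0.07, -0.33 without aged replicate 3) and blood markers (0.13, -0.19 without aged replicate 3). Fcgr4, Fcgr1 and Itgax are limited by depth, with 50 counts or fewer in every library.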
